A study of Mus musculus with 4 samples.

Results

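Heat shock proteins and their DnaJ cochaperones were examined in sections of mouse brain: every gene of the deposited gene list whose symbol begins with Hspa, Hspb, Hsp90, Hsph1, Hspd1, Hspe1 or Dnaj, which gave 68 of the 19465 genes. Each RNA count (a unique molecular identifier, UMI) was located to a spot of a capture array, over which a formalin-fixed, paraffin-embedded section of 5 µm was read. There were 4 sections, 2 labelled Control and 2 labelled rNLS8, all from brains of mice 11 weeks old. Every sample, the controls included, carries the label Dox withdrawal, and the comparison asks how chaperone RNA differs after 3 weeks in that state. In rNLS8 mice a tetracycline transactivator driven by the neurofilament heavy chain promoter switches on, once doxycycline is withdrawn, human TDP-43 that lacks its nuclear import signal, so the transgene is expressed in neurons and not in every brain cell. Which alleles the controls carried is not given in the sources used here. Replicate 1 of each group is labelled female and replicate 2 male, so by the labels the 2 sections of a group came from different animals. The Y-linked counts given below go with this for the controls. They cannot show it for rNLS8, where both sections held Y-linked RNA. The p-values measure the spread between these sections.

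Heat shock proteins hold unfolded proteins and help them to fold, or pass them on for degradation. HSP70 proteins bind and release their clients in a cycle of ATP hydrolysis: DnaJ proteins (HSP40) bring clients and trigger hydrolysis, while HSP110 and other exchange factors remove the ADP. Small heat shock proteins hold clients without ATP, HSP90 proteins finish the folding of kinases and receptors, and HSP60 with HSP10 forms the folding chamber of mitochondria. In neurons these systems guard against aggregation of proteins such as TDP-43, and heat shock factor 1 raises many of the genes under proteotoxic stress. Of the 68 genes, 41 encode DnaJ proteins (3 of class A, 13 of class B, 25 of class C), 13 HSP70, HSP110 or HSP70-like proteins, 2 HSP90 proteins, 2 the mitochondrial chaperonin, and 8 carry the name of small heat shock proteins. Hspbp1 and Hspbap1 were taken in by their spelling only; Hspb11, counted with the small heat shock proteins, encodes a protein of ciliary transport. Hspa8, Hsp90ab1 and Dnaja3 were not analysed here.

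The sections held 17627577 to 28056089 UMI over 2655 to 3810 spots of at least 500 UMI, and the 68 genes took 0.666% and 0.672% of UMI in the controls and 0.640% and 0.625% in rNLS8, here and below in the order replicate 1, replicate 2. Tardbp was listed at 0 UMI in both control sections, with 197 and 138 UMI in the rNLS8 sections. In CPM (counts scaled by the section's total), 4 Y-linked genes summed to 0 in control replicate 1, 107.33 in control replicate 2, 136.73 in rNLS8 replicate 1 and 139.1 in rNLS8 replicate 2. The rNLS8 section labelled female thus held Y-linked RNA, against its label. The sections also differed in what they contained. The rNLS8 replicate 2 section had 456 striatal and 25 basal forebrain spots, against 745 to 828 and 276 to 326 in the others, so the comparison was also made within regions. Regions were clusters of spots named by markers: cortex (790 to 932 spots per section), striatum, septum, fibre tracts, meninges and vessels, an astrocyte-rich band at the brain surface, and claustrum with cortical layer 6b. A cluster of low-count spots that no marker list named held 739 and 649 spots in the controls and 187 and 214 in rNLS8. Its leading genes included Slc17a7 and Neurod1 of the cortical marker list. It entered the whole sections and the spots set against cortex below, but no region. The cortex included 1 cluster of 506 spots (42 and 66 in the controls, 206 and 192 in rNLS8) led by immune genes beside Pvalb and Stac2, and values without it are given where they differ by much. Basal forebrain and ependyma had under 50 spots in 1 section and were not tested. Counts were summed per section and region, and levels are given as CPM, UMI counts scaled to a common effective library size. Capture of fixed tissue relies on probes, so levels are compared between sections and regions and not between genes.

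**Figure D1:**
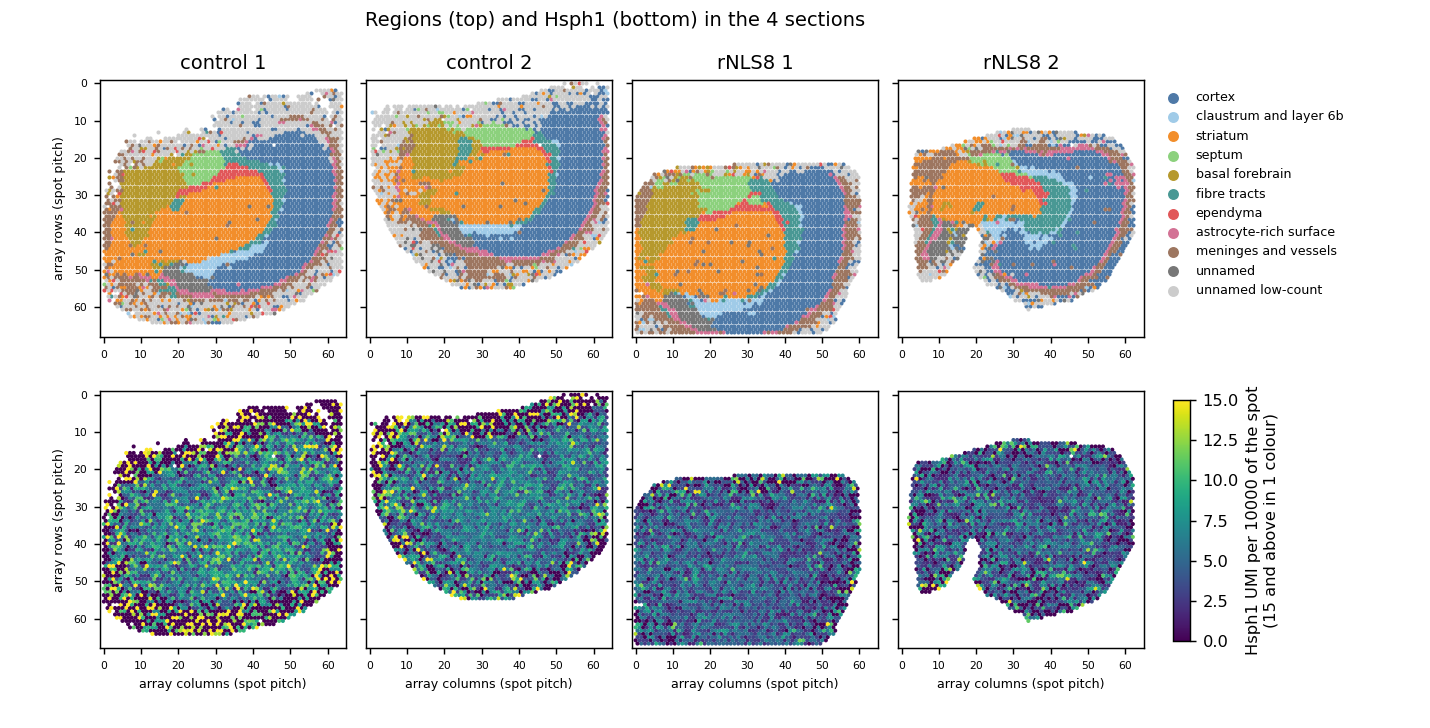
The 4 sections by array position in units of spot pitch, each point 1 spot; the upper row is coloured by region and the lower by Hsph1 as a scaled share of the spot's UMI, with the highest values in 1 colour. The rNLS8 sections are darker across cortex and striatum, where Hsph1 was at 398 to 454 CPM against 591 to 776 in the controls; spots at the rim hold few UMI and scatter widely.

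In whole sections, 59 of the 68 genes passed the filter on low counts. None passed an adjusted p of 0.05 with edgeR's quasi-likelihood test, as did 0 of all 13444 genes (0%). At an unadjusted p under 0.05 there were 7 of the 59, beside 15.6% of all genes. DESeq2 called 2 of the genes lower in rNLS8, Hsph1 and Hspa5, and 2.69% of all genes lower. Both rNLS8 sections lay above both controls for 14 of the 59 genes (26.9% of all genes) and below both for 12 (25.3%). The median log2 fold change was 0.01, beside 0.02 over all genes. The shares of chaperone genes that did not overlap thus lay near those of all genes.

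The cortex gave the same picture with more genes called overall. With edgeR, 0 of the 54 genes tested passed the adjusted p of 0.05, while 162 of 12145 genes did (1.33%). At an unadjusted p under 0.05 there were 10 of the 54, beside 21.6% of all genes. Both rNLS8 sections lay above both controls for 15 genes (28.9% of all genes) and below both for 10 (26.5%). DESeq2 called Hsph1 and Hspa5 lower (adjusted p = 0.00395 and 0.0232), and 4.11% of all genes lower. The counts turned on the control sections. Without control replicate 2, edgeR called 18 of 55 chaperone genes in cortex, 7 higher and 11 lower, where 28.8% of all genes were called; without control replicate 1 it called 3 (Hsph1, Hspa5 and Dnaja2, all lower), where 8.59% of all genes were called. In whole sections, leaving out control replicate 2 gave 6 calls (2 higher, 4 lower), where 13.5% of all genes were called. With 1 control section left, that section was assumed to vary like the others. Without control replicate 2, the control section left held no Y-linked RNA while both rNLS8 sections did. Group and Y-linked RNA therefore cannot be told apart in those fits.

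**Figure D2:**
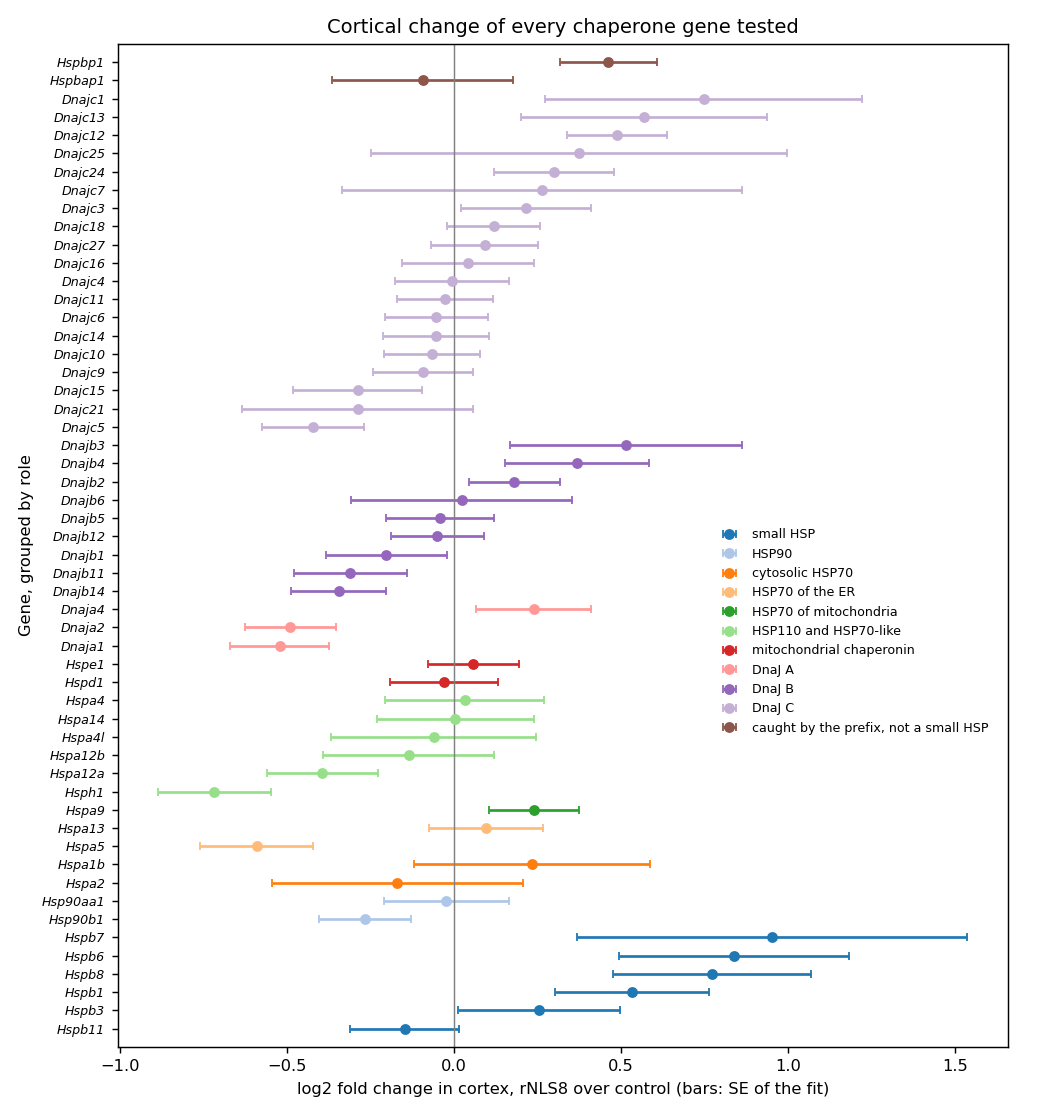
log2 fold change in cortex, rNLS8 over control, of the 54 chaperone genes tested, with the SE of the edgeR fit as bars and genes grouped by role (2 sections per group). Values run from -0.72 (Hsph1) to 0.95 (Hspb7) around a median of 0.00; no gene passed an adjusted p of 0.05 with edgeR, and DESeq2 called Hsph1 and Hspa5 lower.

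Hsph1, the main HSP110 exchange factor that also pulls aggregates apart together with HSP70, had the lowest fold change in cortex. It stood at 758 and 591 CPM in the control sections and at 398 and 423 in the rNLS8 sections. Both rNLS8 sections lay below both controls, with a log2 fold change of -0.72 (SE 0.168, edgeR adjusted p = 0.0831), or 0.608 times the control level. After thinning every cortical spot to 3000 UMI, 84.9% and 82% of control spots and 70.9% and 70.6% of rNLS8 spots held an Hsph1 UMI, a difference of -12.7 points (exact two-sided permutation p = 0.33, the smallest that 2 against 2 sections allow). Without thinning the shares were 92.5%, 92.4%, 95.1% and 91.6%, at depths that differed between sections. The other members of the group showed smaller values: Hspa12a, an atypical HSP70-like protein, had 374 and 304 in control and 279 and 237 in rNLS8 (-0.39, SE 0.167), while Hspa4, Hspa4l, Hspa14 and Hspa12b overlapped between groups, with log2 fold changes from -0.14 to 0.03.

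Hspa5 encodes BiP, the HSP70 of the endoplasmic reticulum (ER) and a usual readout of the unfolded protein response. In cortex it had 1245 and 967 CPM in control and 718 and 750 in rNLS8. The rNLS8 sections were again both lower (-0.59, SE 0.170, edgeR adjusted p = 0.121). Hsp90b1, the HSP90 of the same compartment, had 801 and 760 in control and 664 and 634 in rNLS8 (-0.27, SE 0.138, adjusted p = 0.318). Dnajb11, a cochaperone of BiP, had 99.6 and 79.1 against 67.8 and 76.2 (-0.31, SE 0.169). The groups did not overlap for these 3 ER genes, all lower, as for 26.5% of all genes, but Dnajc3, an ER DnaJ protein that also checks eIF2alpha kinases, and Hspa13 overlapped, at 0.22 (SE 0.194) and 0.10 (SE 0.171).

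The promoters of Hsph1 and Hspa5 are shown because these were the 2 genes called by DESeq2, and those of Hsp90b1, Dnajc3, Dnaja1 and Hspb1 because they hold the same kinds of motif while their values differed in sign. The sequences are RefSeq promoters of build GRCm38.p6, of which 56 of the 68 genes had at least 1, with 250 bases before the start of transcription and 50 after. They are read 5′ to 3′ on the gene's strand and lie before the start, and capitals mark the motif.
Hsph1, chr5:149636342-149636389, minus strand, TTCNNGAA: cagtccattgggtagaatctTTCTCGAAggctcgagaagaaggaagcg
Dnaja1, chr4:40722324-40722371, plus strand, GAANNTTC: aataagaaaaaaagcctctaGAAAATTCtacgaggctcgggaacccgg
Hspb1, chr5:135887782-135887849, plus strand, GAANNTTC: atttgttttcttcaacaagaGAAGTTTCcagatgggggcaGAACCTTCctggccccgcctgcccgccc
Hspa5, chr2:34772005-34772063, plus strand, ER stress element: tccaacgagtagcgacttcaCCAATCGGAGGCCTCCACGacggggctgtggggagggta
Hsp90b1, chr10:86705513-86705676, minus strand, ER stress element: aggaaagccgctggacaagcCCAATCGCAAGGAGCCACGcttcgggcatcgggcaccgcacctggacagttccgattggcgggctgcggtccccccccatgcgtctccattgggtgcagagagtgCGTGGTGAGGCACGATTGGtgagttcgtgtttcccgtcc
Dnajc3, chr14:118937807-118937865, plus strand, ER stress element: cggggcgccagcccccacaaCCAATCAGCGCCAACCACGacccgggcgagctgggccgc
GAANNTTC and TTCNNGAA are pairs of the repeats that make up the heat shock element, searched on both strands; the forms can overlap within 1 element. GAANNTTC occurred in 16 of the 73 promoters of these genes (21.9%), beside 7.86% of all 32851 promoters, and TTCNNGAA in 8 (11.0%), beside 8.52%. The 16 promoters belong to 14 genes and the 8 to 6. Promoters of Hsph1, of Dnajb6, and of Hspd1 with Hspe1 share bases, so 1 match can count more than once. The ER stress element (CCAAT and CCACG with 9 bases between, both strands) occurred in 3 (4.11%), those of Hspa5, Hsp90b1 and Dnajc3, beside 0.119% of all. The genes that hold GAANNTTC include Hsph1 and Dnaja1, with lower values in rNLS8 cortex, and Hspb1, Hspb3, Hspb6 and Hspb8, with higher values. They also include Hspd1 and Hspe1, at -0.03 and 0.06. In Hsph1 and Hspb8 the GAANNTTC matches lie after the start. A match is a description of the letters and was not tested as a binding site.

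Among the DnaJ proteins, Dnaja1 and Dnaja2, the general cochaperones of cytosolic HSP70, had similar values. Dnaja1 had 183 and 154 CPM in control cortex and 119 and 116 in rNLS8 cortex (-0.52, SE 0.148, edgeR adjusted p = 0.118). Dnaja2 had 389 and 358 against 270 and 262 (-0.49, SE 0.137, adjusted p = 0.115). In both, the rNLS8 sections lay below the controls and close to each other, whereas Dnaja4, the third member of the class, overlapped (0.24, SE 0.172).

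Dnajc5 encodes the cysteine string protein, which protects SNARE proteins on synaptic vesicles. It had 635 and 527 in control and 425 and 441 in rNLS8 (-0.42, SE 0.153, edgeR adjusted p = 0.183). Dnajb14, a membrane-bound DnaJ protein of the ER, had 64.4 and 61.9 against 50.2 and 49.2 (-0.35, SE 0.142). Dnajb1, the stress-induced partner of HSP70 in disaggregation, had 153 and 112 against 113 and 117, so only control replicate 1 stood apart (-0.20, SE 0.181), and its value without that section was 0.04.

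Of the 31 DnaJ genes tested in cortex, both rNLS8 sections lay above both controls for 7 (28.9% of all genes) and below both for 5 (26.5%). Dnajc12, a cochaperone of aromatic amino acid hydroxylases, had 47.4 and 53.8 in control and 69.6 and 72.5 in rNLS8 (0.49, SE 0.149, edgeR adjusted p = 0.136). Dnajc1 had 2.18 and 6.35 against 6.65 and 8.02 (0.75, SE 0.474), and Dnajc13, an endosomal protein, 5.08 and 11.0 against 12.1 and 12 (0.57, SE 0.367). In both of these control replicate 1 was the section that stood apart, and control replicate 2 lay close to the rNLS8 sections. Dnajb3, a gene best known from testis, had 4.17 and 6.78 against 6.77 and 9.08, which overlap (0.51, SE 0.347). Without control replicate 2, the values of Dnajc1 and Dnajc13 were 1.71 and 1.22, with no Y-linked RNA in the control section left.

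The highest fold changes in cortex were those of Hspb7, Hspb6 and Hspb8, which encode small heat shock proteins. Of the 8 listed, 6 were tested, and for 5 (Hspb1, Hspb3, Hspb6, Hspb7 and Hspb8) both rNLS8 sections lay above both controls, beside 28.9% of all genes. For the sixth, Hspb11, both lay below (-0.15, SE 0.164). None passed the test with edgeR or DESeq2, and the median of the 6 was 0.65, beside 0.02 over all genes. Cryab, a small heat shock protein that the symbol rule leaves out, is not in these counts, and it overlapped between groups (-0.28). Hspb6 (HSP20), known from muscle and also made by glia, had 22.1 and 14 CPM in control and 22.6 and 41.7 in rNLS8. Its fold change of 0.84 (SE 0.345, edgeR adjusted p = 0.226) rested on rNLS8 replicate 2: without that section it was 0.33, and without rNLS8 replicate 1 it was 1.21 with an adjusted p of 0.0204. Without the cluster led by immune genes it was 0.52. Hspb8, which works with the exchange factor BAG3 to send misfolded proteins to autophagy, had 4.90 and 7.07 against 9.57 and 11.1 (0.77, SE 0.296, adjusted p = 0.201). Hspb1 (HSP27), a stress-induced holdase, had 9.25 and 11.3 against 15.2 and 14.6 (0.53, SE 0.231, adjusted p = 0.245). Hspb7 had 1.63 and 1.73 against 1.75 and 4.87, where a single section was high (0.95, SE 0.584).

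**Figure D3:**
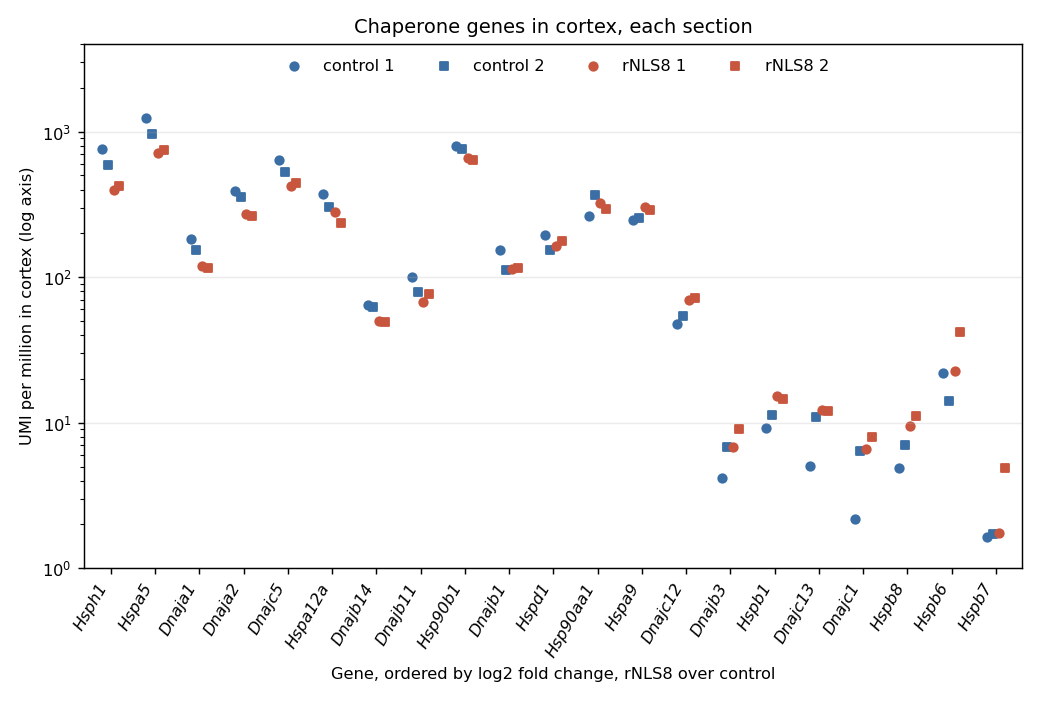
CPM in cortex (log axis) of the 21 chaperone genes given with full values, 1 point per section, ordered by fold change. Both rNLS8 sections lie below both controls for Hsph1 through Hsp90b1 at the left; for Hspb6 and Hspb7 at the right, rNLS8 replicate 2 stands above the other 3 sections.

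Most of the other best known members had fold changes near 0 or overlapped between groups. Hsp90aa1, the inducible cytosolic HSP90, had 265 and 367 in control and 325 and 296 in rNLS8 (-0.02, SE 0.187), and its sign turned without control replicate 2 or without rNLS8 replicate 2 (0.20 and 0.04). Hspd1 (HSP60) had 194 and 154 against 164 and 177 (-0.03, SE 0.162), and its partner Hspe1 gave 0.06 (SE 0.136). Hspa9, the mitochondrial HSP70, had 248 and 257 against 306 and 291, higher in both rNLS8 sections (0.24, SE 0.134, edgeR adjusted p = 0.352). Of the stress-induced HSP70 genes, Hspa1a had 9 UMI and Hspa1b 240 UMI over all sections. These are near-identical copies, so their split is uncertain; Hspa1b had 3.45 and 2.89 CPM in control cortex and 3.85 and 3.55 in rNLS8 cortex (0.23, SE 0.353). Hspbp1, an HSP70 exchange factor taken in by its spelling, had 220 and 258 against 324 and 335 (0.46, SE 0.146, adjusted p = 0.145). The 9 genes below the filter in whole sections (Dnajb7, Dnajb8, Dnajb9, Dnajc22, Dnajc28, Dnajc5g, Hspa1a, Hspa1l and Hspb9) had 0 to 28 UMI in all, and Dnajb8 and Dnajc22 had 0.

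Cell type markers differed between the same cortical sums. The 10 general neuronal markers summed to 13900 and 12900 CPM in control cortex and 9220 and 8670 in rNLS8 cortex, with 1 of the 10 called lower and a median of -0.44. The 14 microglial markers summed to 440 and 538 against 1020 and 1570, with 8 of 14 called higher and a median of 1.35. The 9 tested markers of upper cortical layers summed to 1100 and 1170 against 584 and 503 (3 called lower, median -0.84), and the 14 of deep layers to 1240 and 1210 against 769 and 667 (1 called lower, median -0.31). Astrocyte markers (6120 and 6280 against 6180 and 6950, 1 of 14 called higher) had a median of 0.03. Markers of meninges and vessels (720 and 454 against 857 and 844, 0 of 14 called) had a median of 0.25. The 12 markers of all cortical layers had a median of -0.37 (1 called lower), and the 14 of fibre tracts 0.32 (0 called). Fewer cells of a type and less RNA per cell cannot be told apart in spots that hold several cells, and the part of these shifts in the chaperone values was not tested.

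Some genes kept 1 direction across the 7 regions tested. For Hsph1, Hspa5, Dnaja2 and Hsp90b1, both rNLS8 sections lay below both controls in all 7 regions, and for Hspb6, Hspbp1 and Dnajc12 above both in all 7. These were 4 and 3 of the 40 chaperone genes tested in every region; of all 7131 genes tested in every region, 303 and 194 did the same, and the regions share their 4 sections. No chaperone gene passed the adjusted p of 0.05 in any of the other 6 regions with edgeR, where 0.263% of all genes were called in meninges and vessels, 0.527% in striatum, 0.204% in fibre tracts, 0.703% in the astrocyte-rich surface, 0% in septum and 2.48% in claustrum with layer 6b.

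Hsph1 came nearest in claustrum with layer 6b, at 752 and 588 CPM in control and 442 and 434 in rNLS8 (-0.61, SE 0.157, edgeR adjusted p = 0.0508). In striatum it had 776 and 642 against 454 and 433 (-0.68, SE 0.159, adjusted p = 0.113), and in meninges and vessels 602 and 488 against 351 and 368 (-0.60, SE 0.189). The rNLS8 sections lay close together and below both controls in each of these regions. Hspa5 ranged from -0.59 in cortex to -0.45 in the astrocyte-rich surface. The striatal sums of rNLS8 replicate 2 came largely from 1 cluster that held 263 of its spots and 3 to 9 in the others, while the main striatal cluster held 14 of its spots and 284 to 379 in the others.

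Hspb6 had its highest fold change in claustrum with layer 6b, at 6.57 and 14.3 CPM in control and 25.5 and 31.9 in rNLS8 (1.42, SE 0.413, edgeR adjusted p = 0.0867). In the astrocyte-rich surface it had 23.2 and 17.3 against 46.5 and 49.4 (1.27, SE 0.402). In these regions both rNLS8 sections were high, unlike in cortex, where rNLS8 replicate 1 lay at the level of control replicate 1. Hspb1 differed in sign by region, from 0.91 (SE 0.430) in fibre tracts to -0.35 (SE 0.280) in meninges and vessels, and neither value passed the test. Several of these values rest on few counts. Hspb6 had 5 and 13 UMI in control claustrum with layer 6b and 8 and 8 in the control astrocyte-rich surface. Hspb1 had 5 and 9 UMI in control fibre tracts.

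**Figure D4:**
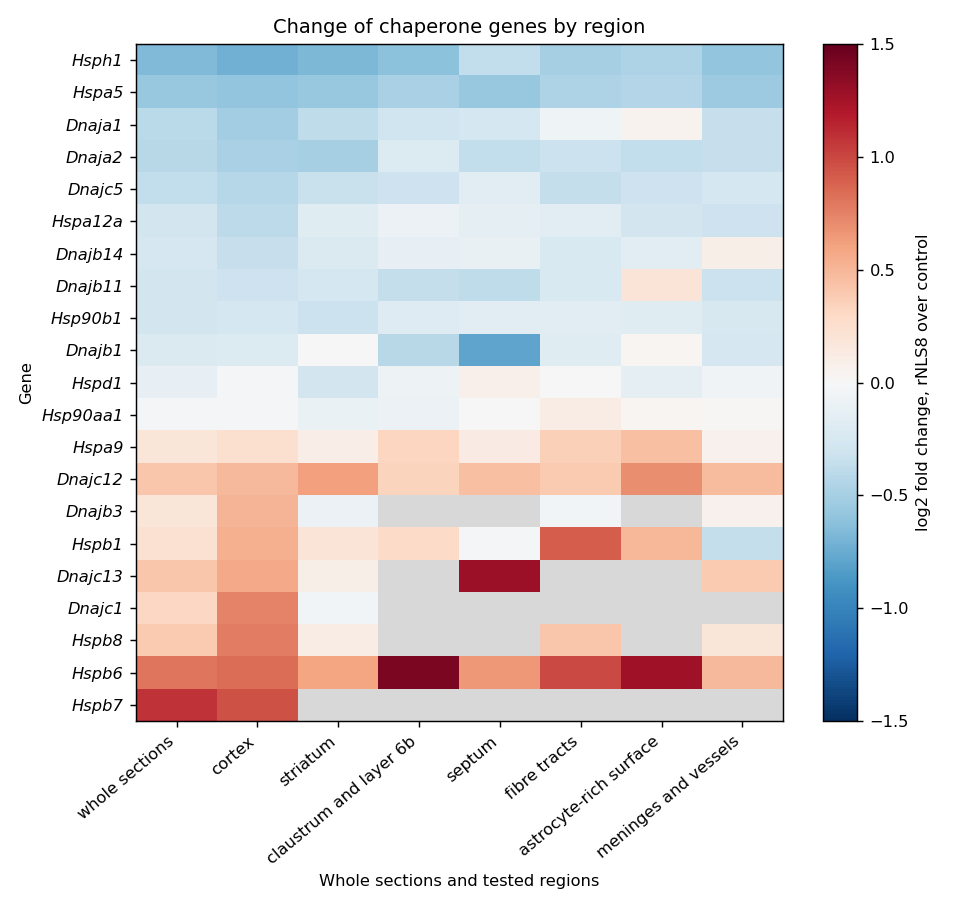
log2 fold change, rNLS8 over control, of the 21 genes given with full values, in whole sections and in the 7 regions; grey marks genes below the filter on low counts. Hsph1 and Hspa5 are negative in every column (-0.37 to -0.72 and -0.45 to -0.59) and Hspb6 is positive in every column (0.48 to 1.42). With edgeR no value passed an adjusted p of 0.05; DESeq2 called Hsph1 lower in whole sections, cortex, striatum and claustrum with layer 6b, and Hspa5 in the first 3 of these.

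The effect in cortex was set against that in all other spots, the low-count cluster included, with each section as its own block. No chaperone gene passed with edgeR (0 of 57, beside 0.293% of all genes). The differences for Hspa12a (-0.20, SE 0.0832, unadjusted p = 0.0345), Dnajc1 (0.67, SE 0.297, unadjusted p = 0.043), Dnajc6 (-0.29, SE 0.132, unadjusted p = 0.0455) and Dnajb4 (0.34, SE 0.154, unadjusted p = 0.0452) were the 4 with an unadjusted p under 0.05 (7.02%, beside 10.7% of all genes). Their adjusted p-values ran from 0.428 to 0.457.

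The level itself differed between cortex and the rest of the section, the low-count cluster again included. Over the 4 sections, 18 of 57 genes were called higher in cortex than in all other spots (22.7% of all genes) and 6 lower (19.7%) with edgeR. DESeq2 called 9 higher and 2 lower, and without control replicate 1 edgeR called 10 and 4. Hspb3, a small heat shock protein best known from muscle, had the largest lead, at a mean of 10.6 CPM in cortex and 4.02 elsewhere (1.44, SE 0.148, adjusted p = 4.83e-06), with cortex higher in 4 of 4 sections. Hspb7, at low counts, followed with 2.57 against 1.42 (0.845, SE 0.269, edgeR adjusted p = 0.0223). Dnajc6 (auxilin), which uncoats clathrin vesicles at synapses, had 44.8 against 27.3 (0.71, SE 0.0662, edgeR adjusted p = 2.07e-06), and Dnajb5 had 127 against 91.3 (0.48, SE 0.0476). Hspa12a, Hspbp1, Dnaja1 and Dnajc5 were higher by 0.21 to 0.36.

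The genes called lower in cortex were led by small heat shock proteins of other regions. Hspb8 had 8.38 in cortex and 15.1 elsewhere (-0.88, SE 0.113, edgeR adjusted p = 3.68e-05) and Hspb1 13 and 19.3 (-0.57, SE 0.121, adjusted p = 0.00198). Both were highest in meninges and vessels. There, as CPM of the region's own UMI without further normalisation, Hspb8 had 30.3 and 59.4 in control and 54.4 and 59.7 in rNLS8, against 4.48 to 11.6 in cortex. Hspb1 had 63.7, 62.6, 38.3 and 66.1 there. Hspa12b, an HSP70-like protein of endothelium, also led there, at 35.6 to 54.5 against 10.9 to 15.6 in cortex.

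Other genes were tied to other regions. Dnajb2, a class B protein with a neuronal role in protein degradation, was highest in fibre tracts in all 4 sections, at 234 to 294 CPM against 140 to 183 in cortex. Hspa2 was highest in ependyma in all 4 sections, at 16.8 to 47.0, and Dnajb13, a protein of motile cilia, had 8.39 to 14.1 in ependyma and at most 2.38 in any section of another region. Dnajc9, a histone chaperone, was highest in ependyma in all 4 sections, at 75.5 to 127 against 52.6 to 62.3 in cortex. Dnajc12 led in basal forebrain, at 77.9 to 106. Ependyma held 39 to 91 spots per section and basal forebrain 25 in rNLS8 replicate 2, so these levels are described and were not tested. Of the 51 genes with at least 500 UMI in all, 11 had their highest mean in ependyma, 10 in septum, 8 in meninges and vessels and 6 each in cortex and basal forebrain. That region was the highest in all 4 sections for 2 of the 11, 0 of the 10, 2 of the 8, 0 of the 6 in cortex and 1 of the 6 in basal forebrain.

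**Figure D5:**
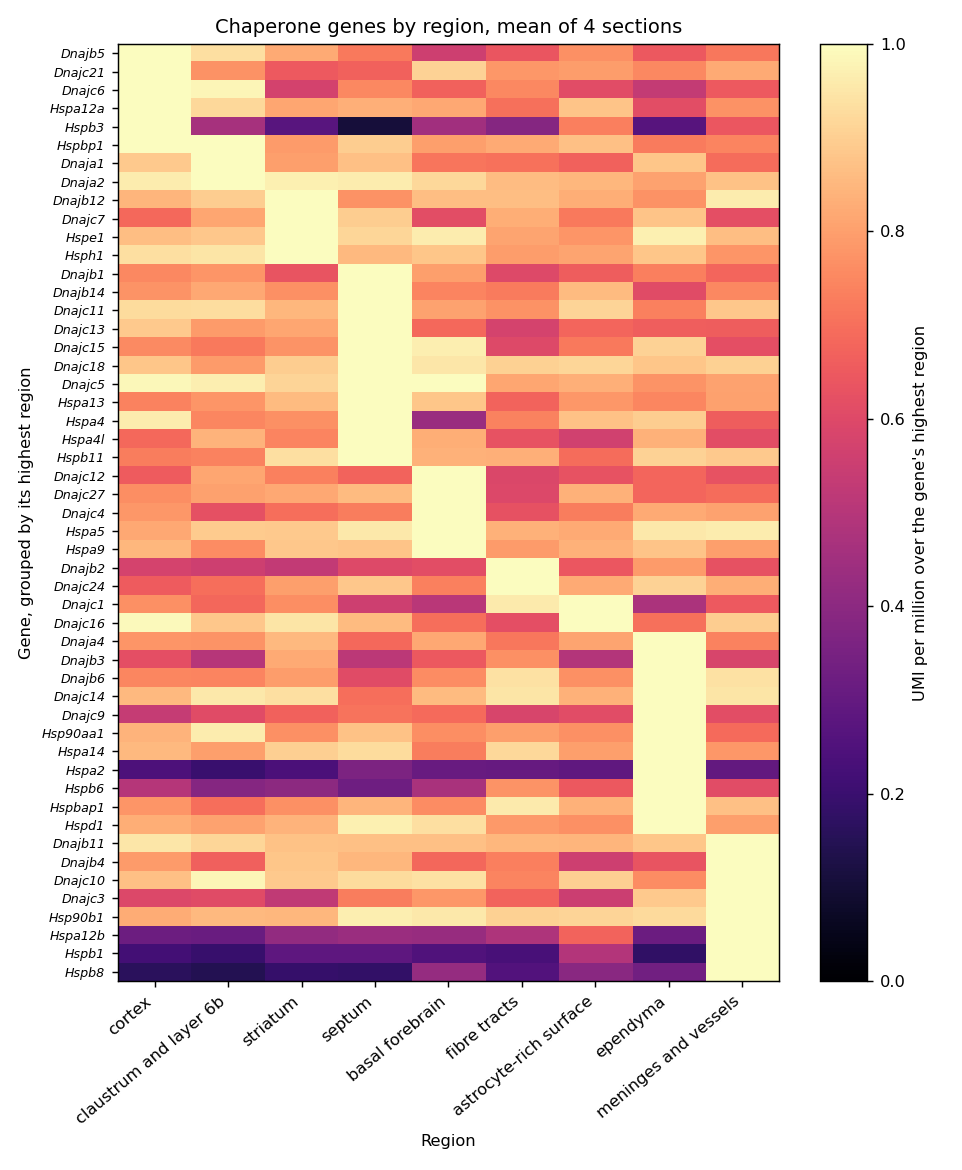
Mean over the 4 sections of CPM in each region, divided by the gene's highest region, for the 51 chaperone genes with at least 500 UMI, grouped by that region. Hspb1, Hspb8 and Hspa12b stand out in meninges and vessels, Hspa2 in ependyma and Hspb3 in cortex, while most genes stay within a narrow range of shades.

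Spatial patterning was read from the Moran's I that the authors deposited per gene and section, a score of how alike neighbouring spots are. Of the 32 chaperone genes detected in 10% or more of each section's spots, 0 passed an adjusted p of 0.05 with limma (0.0316% of all genes), and 5 (15.6%) had an unadjusted p under 0.05, beside 14.3% of all genes. For 23 of the 32 both rNLS8 sections lay below both controls, a larger share than the 46.9% of all genes. The sections differed in depth and in the regions they held, and the part of this in the scores was not tested. Hsph1 had an I of 0.139 and 0.0973 in control and 0.0681 and 0.0301 in rNLS8 (-0.07, SE 0.0253, adjusted p = 0.335). Dnajc5 had 0.123 and 0.073 against 0.0388 and 0.0257 (-0.07, SE 0.0242, adjusted p = 0.335). The median difference was -0.0182 over the chaperone genes and -0.0119 over all 6321 genes, and the median I over all genes was 0.0341 and 0.0331 in control and 0.0251 and 0.0158 in rNLS8. The median I over all genes was thus also lower in both rNLS8 sections.

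The other genes of the chaperone and stress pathways were taken from 9 lists of 100 genes. In cortex, 92 rows were tested (Ddit3 is listed under 2 identifiers), and 2 genes rose and 0 fell with edgeR; in whole sections 0 of 95 passed. Pdrg1, a subunit of a prefoldin-like complex, had 111 and 106 CPM in control cortex and 372 and 451 in rNLS8 cortex (1.92, SE 0.159, adjusted p = 0.0246). It was also called higher in 5 of the other 6 regions, and Atf4 was called higher in the astrocyte-rich surface (2.28, SE 0.463, edgeR adjusted p = 0.0341). Atf3, a transcription factor of injured neurons and of the integrated stress response, had 0.544 and 0.289 against 7 and 14.5 (4.67, SE 0.610, edgeR adjusted p = 0.0334). Both control values were very low, so the size of this fold change is uncertain. No gene of the heat shock factor list (4 tested), the exchange factors of HSP70 (12), the HSP90 cochaperones (17), the CCT chaperonin (8), the crystallins and other small chaperones (6), the ER chaperones and unfolded protein response (20 rows) or the clearance genes (10) passed.

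Bag3, the partner of Hspb8, had 5.81 and 4.19 in control cortex and 7.94 and 7.37 in rNLS8 cortex (0.62, SE 0.306, edgeR adjusted p = 0.295). Cryab, the most abundant small heat shock protein of glia, had 340 and 242 against 259 and 219, which overlap (-0.28, SE 0.198). Hsf1 was not analysed here. The list medians in cortex were 0.65 for the integrated stress response, 0.23 for prefoldin, 0.18 for the ER list, 0.14 for the heat shock factors, 0.15 for the exchange factors of HSP70, 0.13 for the crystallins and other small chaperones, 0.10 for CCT, 0.02 for the HSP90 cochaperones and -0.06 for the clearance genes, beside 0.02 over all genes. Within the ER list the values ran from -0.76 to 1.77, so genes with both signs stood beside the lower values of Hspa5 and Hsp90b1.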

How the data were processed

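RNA was measured by spatial capture in 4 brain sections, 2 per group. For each spot and gene the deposited value is a UMI count, not normalised, made with Space Ranger 2.1.0 per the file headers, on build mm10 per the submitters' processing notes. The deposited Moran's I is a score per gene and section. Grid positions and barcodes were used as deposited.

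Spots of at least 500 UMI were clustered (Pearson residuals with cosine scaling, theta 100, 2000 variable genes, 30 components, 15 neighbours, Leiden resolution 1; leidenalg 0.10.2, scikit-learn 1.9.0), which gave 21 clusters, and clusters were named by marker lists. The chaperone genes, the pathway lists and microglial and Y-linked markers were left out of the genes clustered. This clustering was the last of 6 tried: log values scaled to unit variance, unscaled log values, Pearson residuals, residuals of counts summed with neighbouring spots, residuals with cosine distance, and the last of these without a list of glial and immune response genes. The earlier ones were dropped for clusters of low depth, of 1 section or genotype, or led by immune genes, judged on size, section mix and markers, with no chaperone value computed. The response list was written after cluster genes had been seen. Keeping in cortex the cluster led by immune genes departs from the planned wording, which names regions by their leading markers.

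Counts summed per section and region were tested with edgeR 4.0.16 (R 4.3.3; TMM, filterByExpr, quasi-likelihood, Benjamini-Hochberg over all genes tested, threshold 0.05), with DESeq2 1.42.0 as an alternative. The cortex effect and level used each section as a block. Moran's I was tested with limma 3.58.1 over genes in at least 10% of spots. SEs of log2 fold changes were derived from the F statistic. For shares, spots were thinned to 3000 UMI. Tables used Python 3.11.15, numpy 2.4.6, pandas 2.3.3 and scipy 1.17.1.

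On simulated counts, edgeR recovered 62 of 97 genes changed by a log2 fold of 1 and 102 of 103 changed by 2 in whole sections (13444 genes, 15 false calls), and 64 of 105 and 95 of 95 in cortex (12145 genes, 14 false calls). Changed genes were drawn from those with higher counts, and noise was drawn independently per gene at the fitted dispersion. In the real whole sections 0 of 13444 genes passed, and Pdrg1 did not at 1.62 (SE 0.145, edgeR adjusted p = 0.0966). The recovered shares therefore do not give the power of the real test. limma recovered 195 of 200 simulated shifts of 0.3 in Moran's I (6321 genes, 11 false calls). The largest difference of a chaperone gene was -0.0691 (Hsph1). Shifts of that size were not simulated, so this recovery does not show the power for them.

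Given with full values were genes with an adjusted p under 0.05 in whole sections or cortex, the 8 highest and the 8 lowest fold changes in cortex, and 10 best known genes, of which Hspa8 and Hsp90ab1 were not analysed here. Of the pathway genes these were the ones called, with Bag3 and Cryab. The members and lists were chosen with earlier results of these data known. Other alternatives were another normalisation, no filter on low counts, other spot and region choices, leaving out each section, and the replicate number as a block. Protein sequences were not used here.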

Additional observations from a re-analysis of the deposited data

Results flagged for a closer look

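For 4 chaperone genes both rNLS8 sections lay on 1 side of both controls in 1 region and on the opposite side in another. The share of all genes that did the same is not given here. In cortex alone, groups did not overlap for 28.9% of all genes, higher in rNLS8, and 26.5%, lower. These differences between regions were not tested, and the regions share their sections. Dnajb4, an HSP70 partner, lay higher in both rNLS8 sections in cortex (0.37 on the log2 scale), fibre tracts and the astrocyte-rich surface, and lower in claustrum with layer 6b (-0.17). Dnajc11, of the mitochondrial membrane, lay higher in fibre tracts (0.14) and lower in the astrocyte-rich surface (-0.31). Dnajc4 lay higher in claustrum with layer 6b (0.055) and lower in fibre tracts (-0.37). Hspbap1 lay higher in claustrum with layer 6b (1.09) and lower in striatum (-0.29). Some of these values rest on few counts. In claustrum with layer 6b, Hspbap1 had 5 and 4 UMI in control and 11 and 16 in rNLS8. Dnajb4 had 22 and 21 against 24 and 29 there.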

How the results depend on the processing

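Counts of chaperone genes called were 0 in whole sections, cortex and the other 6 regions (276 gene tests) with edgeR. Shares of all genes called under the same setting stand in parentheses. In whole sections DESeq2 called 2 (4.10%), and leaving out 1 section gave 0 to 6 (13.5% at the highest). In cortex DESeq2 called 2 (6.24%), no filter on low counts 1 (4.98%), and leaving out 1 section gave 0 to 18 (28.8%). In the other regions DESeq2 called 3 (3.45%), no filter 7 (2.43%), and leaving out 1 section gave 0 to 19 (7.07%). The highest counts all came without control replicate 2, where both rNLS8 sections held Y-linked RNA and the control section left held none. The cortex effect against that elsewhere gave 0 to 1 (4.63%, without rNLS8 replicate 1). The 24 genes whose level differed in cortex (42.4%) became 11 with DESeq2 (25.3%), and 14 (33.3%, without control replicate 1) to 21 when 1 section was left out. The Hsph1 share difference of -12.7 points was -15.0 at 2000 UMI and 0.868 without thinning.

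With the replicate number as a block, edgeR called 1 gene in cortex (Hsph1, -0.71, adjusted p = 0.0415; 6.38% of all genes), 3 in the other regions (1.80%) and 0 in whole sections (0.58%). The samples share only a number, tied to the labelled sex: the replicate differences of both groups correlated at -0.013 over 13444 genes.

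Leaving out 1 section turned the sign of 4 genes. In whole sections the values ran from -0.288 (without control replicate 1) to 1.387 for Dnajc1, from -0.20 to 0.184 (without control replicate 2; 0.073 without rNLS8 replicate 2) for Hsp90aa1, and from -0.477 to 0.079 (without control replicate 1) for Dnajb1. In cortex they ran from -0.244 to 0.203 (without control replicate 2; 0.042 without rNLS8 replicate 2) for Hsp90aa1, from -0.218 to 0.139 (without control replicate 1; 0.019 without rNLS8 replicate 1) for Hspd1, and from -0.445 to 0.038 (without control replicate 1) for Dnajb1. Of the values of single genes under the alternatives, 204 in cortex and 200 in whole sections kept their direction and side of the threshold, and 22 and 6 passed it only under the alternative. The cause was not tested.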
